A study of Mus musculus with 6 samples.

Results

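The comparison described here sets CD4 T cells whose Notch signalling was withdrawn late in maturation (OFF, 2 samples) against cells in which it was kept on (ON, 2 samples), 4 of the 6 samples of the series. It is described across protein-coding genes, of which 12667 of the 21697 in the count table had enough reads to be tested. ON and OFF cells came from the spleens of RBPJind mice and were sorted through 1 gate, CD3+CD4+CD25-CD45RBint, described as immature naive cells. RBPJ in these mice is under the control of doxycycline (Dox). ON mice had Dox water for 4 weeks. OFF mice had it for 3 weeks and then 1 week without it, while their cells matured in the periphery, which left them unresponsive to Notch per the series' design text. The remaining 2 samples (WT) are mature naive cells of wild type mice, CD3+CD4+CD25-CD45RBhi, also labelled Dox. Their values stand beside those of ON and OFF for orientation only. No label used here states the promoter of the inducible RBPJ, the age of the mice or whether paired samples are different animals. A p-value therefore measures only the spread between samples, which may be technical. OFF mice lacked Dox as well as Notch responsiveness in the last week, and these effects cannot be told apart.

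Notch receptors are cut when they bind ligand on a neighbouring cell, and the freed intracellular part enters the nucleus. There it joins RBPJ, a DNA-binding protein, and a Mastermind cofactor to switch on target genes. Dtx1 and the Hes and Hey repressors are classical targets. In T cells the pathway is best known for committing thymocytes to the T lineage, and in peripheral CD4 cells it has been tied to cytokine production and helper fates.

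Protein-coding genes took 71.7% and 76.2% of gene counts in ON 1 and ON 2, against 67.2% and 66.8% in OFF 1 and OFF 2. Gene counts ran from 17200098 to 19319183 in these 4 libraries. Protein-coding genes with at least 1 count numbered 18006 and 17594 in ON and 15802 and 16279 in OFF, so OFF libraries detected fewer genes. Of all reads, 14.8% and 9.34% were not aligned in ON 1 and ON 2, against 22.1% and 24.3% in OFF 1 and OFF 2. Reads assigned to genes were 43.2% and 46.9% in ON 1 and ON 2 and 36.4% and 39% in OFF 1 and OFF 2. Each of these measures separated the groups without overlap, and their part in the results below was not tested. The sorted cells carried RNA of the CD4 and CD3 they were selected for. Cd4 stood at 691 and 644 CPM in ON 1 and ON 2 and 649 and 702 in OFF 1 and OFF 2. Cd3e was at 417 and 421 CPM in ON 1 and ON 2 and 357 and 427 in OFF 1 and OFF 2. Cd8a was 5.72 and 5.85 CPM in ON and 3.06 and 4.09 in OFF. Il2ra, which encodes the CD25 used to exclude cells, was present at 27.7 and 24.9 CPM in ON and 25.3 and 28.8 in OFF. It was lower in WT, at 4.19 and 4.65 CPM, where CD25 was excluded too. CPM are gene counts relative to the TMM-scaled library size.

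Of the 12667 protein-coding genes, 104 (0.821%) passed an adjusted p of 0.05 in edgeR's quasi-likelihood test (Benjamini-Hochberg over all 15780 genes tested, of which 162 or 1.03% were called). In OFF 41 were higher (0.324%) and 63 lower (0.497%). At an unadjusted p under 0.05 these were 1015 (8.01%) and 1433 (11.3%). Over all genes tested the median log2 fold change of OFF against ON was -0.03 (quartiles -0.30 and 0.19), and 46.8% of genes were above 0. Changes past 2-fold numbered 1242 among all 12667 genes, called or not. Among called genes they numbered 19 of the 41 that rose and 36 of the 63 that fell. The count depended on single libraries, with 10 to 166 genes higher and 15 to 344 lower when 1 library was left out. The balance turned to 214 higher and 72 lower when library offsets were made to follow exonic length, an alternative chosen after seeing the data.

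**Figure D1:**
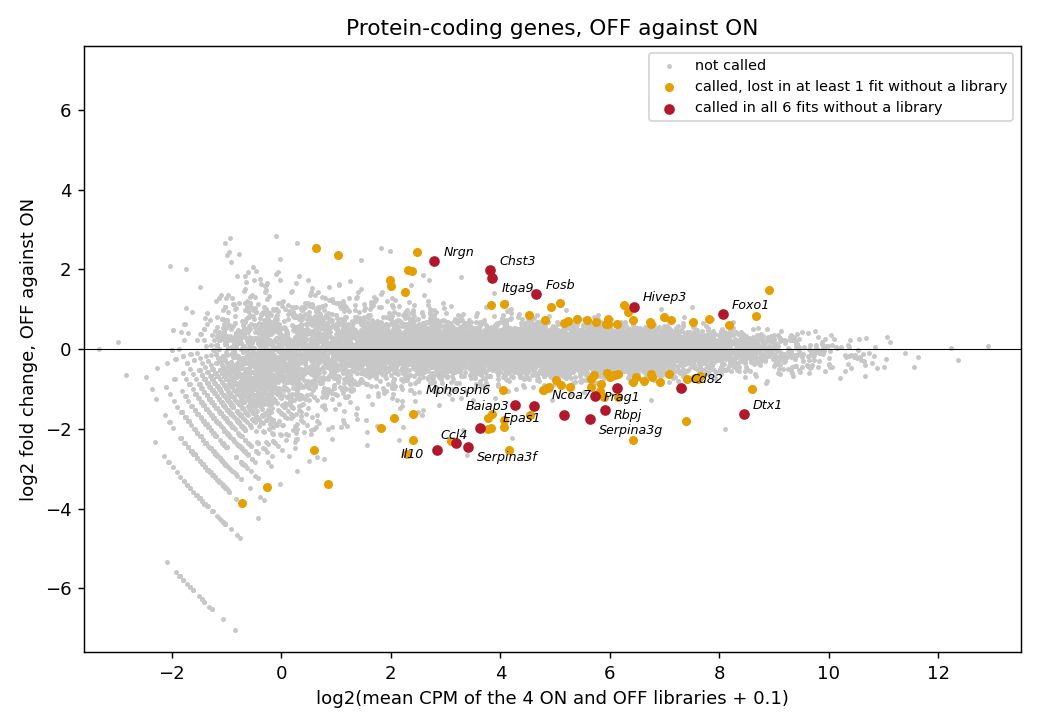
Each point is 1 of the 12667 protein-coding genes tested, with its log2 mean CPM over the ON and OFF libraries plus 0.1 (x axis) and its log2 fold change of OFF against ON (y axis). Orange points are called genes that lost the call in at least 1 fit without a library, and red points are the 19 that kept it in all 6. Below 0.5 CPM most points lie under 0.

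A call that held in each of the 6 fits that left out 1 library was kept by 19 protein-coding genes, 13 lower and 6 higher in OFF. One of the 13, Gm10722, is a predicted gene model. The other 18 had a mean above 5 CPM and are described one by one. Their highest adjusted p without a library was 0.0424, for Ncoa7. Groups that do not overlap were a condition of their choice, so the lack of overlap is no result. Among all protein-coding genes 21.8% had both OFF libraries above both ON libraries and 25.8% had both below.

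Rbpj itself (ENSMUSG00000039191; chromosome 5, 53466152 to 53657362 of GRCm38) was counted at 98.2 and 79.6 CPM in ON 1 and ON 2 and 29.8 and 31.7 in OFF 1 and OFF 2. Both OFF libraries were close together and well below both ON libraries (2.89-fold; log2 fold change -1.53 ± 0.14, SE; adjusted p = 0.00195). WT libraries had 36.1 and 35.3 CPM. RBPJ is what Dox controls in these mice, so a fall of Rbpj belongs to the intervention and is no independent result. Dtx1, a ubiquitin ligase gene (ENSMUSG00000029603; chromosome 5, 120680202 to 120711927), had 492 and 562 CPM in ON 1 and ON 2 and 195 and 145 in OFF 1 and OFF 2. The lower ON library was more than double the higher OFF library (3.10-fold; log2 fold change -1.63 ± 0.16, SE; adjusted p = 0.00234), and WT stood at 198 and 198 CPM.

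Genes of secreted products and genes of the serpin family made up part of the falls. Il10, the gene of an anti-inflammatory cytokine (ENSMUSG00000016529; chromosome 1, 131019845 to 131024974), had 14.3 and 9.86 CPM in ON 1 and ON 2 and 1.68 and 2.46 in OFF 1 and OFF 2. It was low in WT, at 0.179 and 0.233 CPM, and OFF was 5.82-fold under ON (log2 fold change -2.54 ± 0.30, SE; adjusted p = 0.00639). Ccl4, an inflammatory chemokine gene, was at 21.6 and 17.7 CPM in ON 1 and ON 2 and 3.52 and 6.49 in OFF 1 and OFF 2. OFF 2 kept more of it than OFF 1, yet both were far under ON (3.93-fold; log2 fold change -1.98 ± 0.29, SE; adjusted p = 0.00942). WT had 0.120 CPM in 1 library and 0 in the other. Serpina3g, a serine protease inhibitor gene of activated lymphocytes, went from 88.98 and 64.5 CPM in ON to 19.01 and 26.3 in OFF (3.39-fold; log2 fold change -1.76 ± 0.20, SE; adjusted p = 0.00563). Its neighbour Serpina3f went from 21.7 and 13.6 CPM to 2.89 and 3.61 (5.44-fold; log2 fold change -2.44 ± 0.29, SE; adjusted p = 0.00639). For both serpin genes ON 1 exceeded ON 2, and neither OFF library came near ON 2. WT stood at 2.15 and 2.67 CPM for Serpina3g and 1.02 and 0.814 for Serpina3f. As members of a multigene cluster of near-identical copies, their counts are uncertain.

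The remaining falls held a transcription factor, a tetraspanin and genes of less studied roles in T cells. Epas1, which encodes the hypoxia-inducible factor HIF-2 alpha, was at 63.3 and 45.00 CPM in ON 1 and ON 2 and 19.9 and 14.7 in OFF 1 and OFF 2 (3.13-fold; log2 fold change -1.64 ± 0.20, SE; adjusted p = 0.00782). WT, at 20.2 and 23.6 CPM, lay just above OFF. Cd82, a tetraspanin gene of the cell surface, had 210.2 and 211 CPM in ON 1 and ON 2 and 106 and 106 in OFF 1 and OFF 2. The libraries of each group were nearly equal and the step between groups was 1.98-fold (log2 fold change -0.99 ± 0.11, SE; adjusted p = 0.00443). Baiap3, a gene of vesicle release, had 36.7 and 34.8 CPM in ON 1 and ON 2 and 12.2 and 14.3 in OFF 1 and OFF 2 (2.70-fold; log2 fold change -1.43 ± 0.17, SE; adjusted p = 0.00639). Its exons overlap those of Tsr3 on the opposite strand, and the strand setting of the counting is not given, so reads of both may be joined. Mphosph6, which encodes a partner of the RNA exosome, had 26.2 and 29.7 CPM in ON 1 and ON 2 and 11.1 and 10.04 in OFF 1 and OFF 2 (2.64-fold; log2 fold change -1.40 ± 0.17, SE; adjusted p = 0.00639). Prag1, a pseudokinase gene, was at 70.9 and 75.2 CPM in ON 1 and ON 2 and 34.3 and 30.3 in OFF 1 and OFF 2 (2.26-fold; log2 fold change -1.18 ± 0.13, SE; adjusted p = 0.00440). Here OFF was also under WT, which had 47.9 and 44.2 CPM. Ncoa7, a nuclear receptor coactivator gene, had 94.8 and 90.6 CPM in ON 1 and ON 2 and 50.9 and 43.7 in OFF 1 and OFF 2 (1.96-fold; log2 fold change -0.97 ± 0.13, SE; adjusted p = 0.0106), and shares exonic sequence with Hint3.

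**Figure D2:**
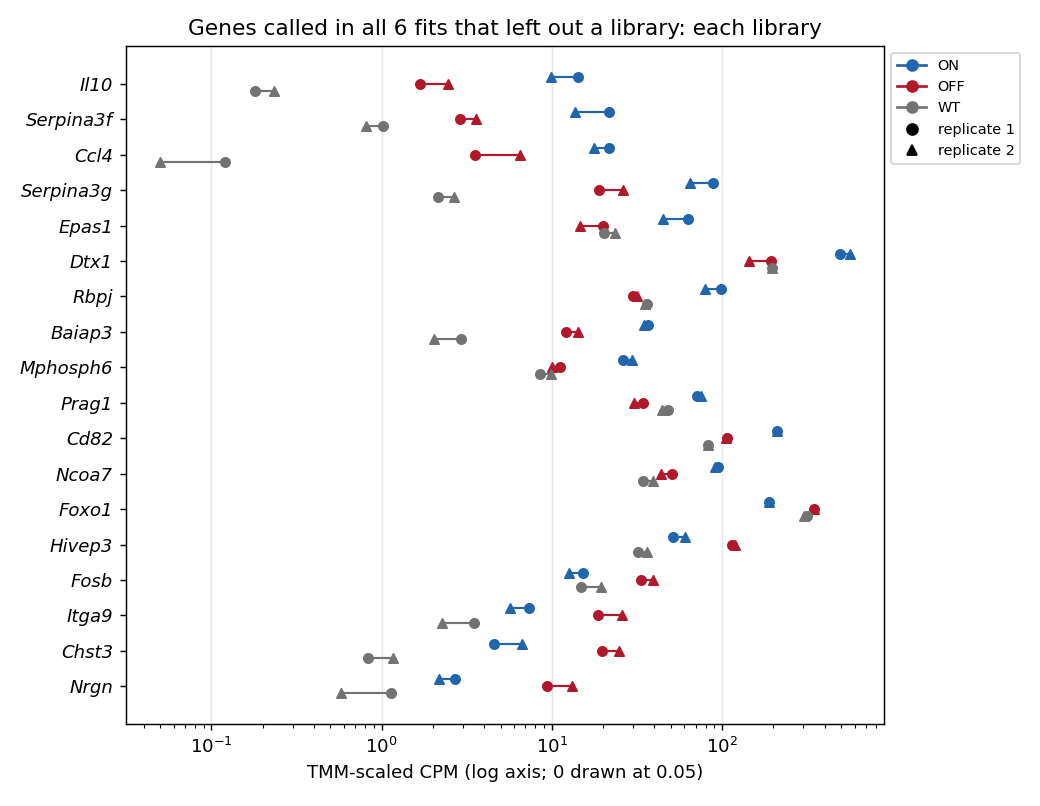
TMM-scaled CPM on a log axis (x) of the 18 genes whose call held without each of the 6 libraries, with 1 point per library (circles replicate 1, triangles replicate 2) and a line joining the 2 libraries of ON (blue), OFF (red) and WT (grey). By the rule of choice the blue and red points do not overlap in any row, and WT takes a different place from gene to gene.

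To show the DNA in front of genes that moved with Rbpj, the 250 bases before the start are given for Dtx1 and for both serpin genes, from RefSeq on GRCm38.p6, 5′ to 3′ on the strand of the gene. Capitals mark TGGGAA or its reverse complement TTCCCA, the core letters of the RBPJ motif. Dtx1 lies at chr5:120711670-120711919 on the minus strand, Serpina3f at chr12:104214294-104214543 and Serpina3g at chr12:104235897-104236146, both on the plus strand. The Dtx1 window lies within the gene span given above, which follows another annotation, so it does not cover the bases in front of that span.
Dtx1: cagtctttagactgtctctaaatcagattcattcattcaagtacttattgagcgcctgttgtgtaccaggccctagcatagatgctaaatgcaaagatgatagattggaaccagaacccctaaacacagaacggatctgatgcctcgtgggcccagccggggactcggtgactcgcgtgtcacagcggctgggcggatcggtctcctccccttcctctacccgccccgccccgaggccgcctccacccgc
Serpina3f: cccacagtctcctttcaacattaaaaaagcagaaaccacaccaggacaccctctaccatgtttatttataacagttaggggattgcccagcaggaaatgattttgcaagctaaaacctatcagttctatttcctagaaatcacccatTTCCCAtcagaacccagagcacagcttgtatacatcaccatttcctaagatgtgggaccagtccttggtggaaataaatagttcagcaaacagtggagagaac
Serpina3g: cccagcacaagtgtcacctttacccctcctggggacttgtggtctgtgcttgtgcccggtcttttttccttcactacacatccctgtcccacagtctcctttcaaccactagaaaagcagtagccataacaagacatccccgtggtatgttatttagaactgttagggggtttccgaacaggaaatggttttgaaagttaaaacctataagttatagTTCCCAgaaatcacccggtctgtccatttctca
The 2 serpin windows were chosen for holding these letters, so their 1 match each, 103 and 33 bases before the start, is no result. Serpina3f has 2 starts, and 1 that holds the letters was used. Dtx1 was printed whatever it held, and its window holds none. The planned rule asked the other falling genes for GTGGGAA, and none with a promoter held it. Promoters of 300 bases, from 250 before to 50 after the start, could be matched by symbol for 9972 of the 12667 genes. TGGGAA stood on either strand in 26.8% of them, in 11 of 47 of the genes that fell (23.4%) and in 8 of 37 that rose (21.6%). Of the 8 with a promoter among the 13 that fell in every fit, 5 held it: Baiap3, Cd82, Rbpj, Serpina3f and Serpina3g. These include Rbpj, which the design itself switches, and 2 neighbouring serpin genes of 1 cluster. A gene with several starts, such as Rbpj or Serpina3f, counted as holding the letters if any start did. None of these 8 held the longer GTGGGAA, and of the 6 that rose in every fit 0 held TGGGAA. The longer motif GTGGGAA (it contains TGGGAA) was in 7.32% of all, in 2 of 47 and in 3 of 37. The forkhead letters TGTTTAC were in 3.19% of all, 2 of 47 and 2 of 37, and the AP-1 letters TGANTCA in 6.18%, 3 of 47 and 3 of 37. These shares are descriptions of the windows, with no test, and the windows to print were chosen after they were seen.

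Rises in OFF that held in every fit came to 6 genes. Foxo1, the transcription factor that keeps naive T cells quiescent and in circulation (ENSMUSG00000044167; chromosome 3, 52268336 to 52353221), was at 189.8 and 189 CPM in ON 1 and ON 2 and 344 and 348 in OFF 1 and OFF 2. Replicates were almost equal and the rise was 1.83-fold (log2 fold change 0.87 ± 0.11, SE; adjusted p = 0.00867) over ON, to above the 317 and 302 CPM of WT. An antisense RNA gene overlaps its exons, and a same-strand gene model those of Hivep3. Hivep3, which encodes a large zinc finger protein, went from 51.6 and 60.4 CPM to 114 and 119.5 (2.09-fold; log2 fold change 1.06 ± 0.13, SE; adjusted p = 0.00670). Both OFF libraries were above both other groups, WT having 32.2 and 36.1 CPM. Fosb, an AP-1 subunit gene induced within minutes of stimulation or stress, was at 15.2 and 12.7 CPM in ON 1 and ON 2 and 33.4 and 39.2 in OFF 1 and OFF 2 (2.61-fold; log2 fold change 1.38 ± 0.18, SE; adjusted p = 0.00933). ON lay beside the 14.8 and 19.4 CPM of WT.

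Chst3 encodes an enzyme that adds sulfate to chondroitin chains. It was at 4.60 and 6.69 CPM in ON 1 and ON 2 and 19.7 and 24.9 in OFF 1 and OFF 2 (3.94-fold; log2 fold change 1.98 ± 0.23, SE; adjusted p = 0.00639) and at 0.837 and 1.16 CPM in WT. Itga9, the gene of an integrin alpha chain, was at 7.31 and 5.65 CPM in ON 1 and ON 2 and 18.7 and 25.9 in OFF 1 and OFF 2 (3.44-fold; log2 fold change 1.78 ± 0.24, SE; adjusted p = 0.0109). Nrgn encodes neurogranin, a small calmodulin-binding protein known from neurons, and was at 2.71 and 2.18 CPM in ON 1 and ON 2 and 9.36 and 13.2 in OFF 1 and OFF 2 (4.60-fold; log2 fold change 2.20 ± 0.30, SE; adjusted p = 0.0106). All of Chst3, Itga9 and Nrgn were lowest in WT and highest in OFF by group, and neither OFF library came near ON.

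The other 85 calls were each lost without at least 1 library. Leaving out OFF 1 removed 74 of the 104 calls, WT 2 removed 71, WT 1 64, OFF 2 63, ON 2 47 and ON 1 9. WT libraries bear on this comparison only by way of the low-count filter, TMM and the pooled dispersion, not by their levels. Of the less secure calls given below with CPM values, 20 were also lost with only the ON and OFF libraries fitted (adjusted p from 0.0546 to 0.159). The exceptions were Serpinb6b, Atpif1, Sox4, Lars2, Ccl5 and Gm21738. Genes named below without values are left out of this count and of the losses that follow. Without a filter on low counts the calls of Hmgb2, Havcr2, Gzmk, Ccl3, Ccl5, Zfp36l1, Dusp2 and Gm21738 were lost (0.0521 to 0.122). Fitting protein-coding genes alone ended those of Hmgb2, Havcr2, Gzmk, Ccl5, Zbtb20, Hivep1, Zfp36l1, Dusp2 and Gm21738 (0.0518 to 0.0608). A mean of at least 1 CPM ended those of Havcr2, Hmgb2 and Zfp36l1, RLE scaling those of Hmgb2, Ccl5 and Gm21738, and limma-voom those of Hmgb2 (0.0536), Havcr2, Gzmk and Gm21738.

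Among these less secure falls were further products and receptors of stimulated T cells. Maf, the gene of a transcription factor of Il10 and Il21, was at 90.8 and 74.7 CPM in ON 1 and ON 2 and 29.1 and 43.03 in OFF 1 and OFF 2 (log2 fold change -1.20 ± 0.18, SE; adjusted p = 0.0210), and its call was lost without OFF 1 or WT 2 (adjusted p up to 0.0579). Il21, the gene of a follicular helper cytokine, was at 10.1 and 7.04 CPM in ON 1 and ON 2 and 1.16 and 2.40 in OFF 1 and OFF 2 (log2 fold change -2.27 ± 0.36, SE; adjusted p = 0.0250), lost without OFF 1 (adjusted p = 0.0914). Havcr2, which encodes the inhibitory receptor TIM-3, had 26.9 and 16.5 CPM in ON 1 and ON 2 and 5.03 and 9.13 in OFF 1 and OFF 2 (log2 fold change -1.62 ± 0.31, SE; adjusted p = 0.0481), lost without OFF 1, ON 1, WT 1 or WT 2 (adjusted p up to 0.174). In each of these OFF 2 was nearer to ON than OFF 1 was. Tnfrsf4, the gene of the costimulatory receptor OX40, had 41.3 and 35.1 CPM in ON 1 and ON 2 and 18.4 and 20.7 in OFF 1 and OFF 2 (log2 fold change -0.97 ± 0.15, SE; adjusted p = 0.0219), lost without OFF 1, WT 1 or WT 2 (adjusted p up to 0.109). Serpinb6b, a cytosolic serpin gene, had 43.2 and 27.2 CPM in ON 1 and ON 2 and 10.9 and 11.4 in OFF 1 and OFF 2 (log2 fold change -1.66 ± 0.23, SE; adjusted p = 0.0122), lost without OFF 1 (adjusted p = 0.0549). Hmgb2, a chromatin gene high in dividing cells, had 602 and 425 CPM in ON 1 and ON 2 and 223 and 292 in OFF 1 and OFF 2 (log2 fold change -0.995 ± 0.19, SE; adjusted p = 0.0491), lost without OFF 1, ON 1, WT 1 or WT 2 (adjusted p up to 0.202).

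Falls of smaller size included Ssb, Snrpf, Rbm3 and Atpif1, singled out after their values were seen. Ssb, which encodes the La protein that binds the ends of new RNA polymerase III transcripts, was at 197 and 228 CPM in ON 1 and ON 2 and 123 and 128 in OFF 1 and OFF 2 (log2 fold change -0.76 ± 0.12, SE; adjusted p = 0.0226), lost without OFF 1, OFF 2, WT 1 or WT 2 (adjusted p up to 0.109). Snrpf, the gene of an Sm protein of the spliceosome, was at 138 and 172 CPM in ON 1 and ON 2 and 86.8 and 88.2 in OFF 1 and OFF 2 (log2 fold change -0.83 ± 0.13, SE; adjusted p = 0.0246), lost without OFF 1, OFF 2, WT 1 or WT 2 (adjusted p up to 0.0996). Rbm3, an RNA-binding protein gene induced by cold, was at 244 and 247 CPM in ON 1 and ON 2 and 150.2 and 158 in OFF 1 and OFF 2 (log2 fold change -0.67 ± 0.11, SE; adjusted p = 0.0298), lost without OFF 1, OFF 2, WT 1 or WT 2 (adjusted p up to 0.147). Exons of Ssb and Snrpf overlap those of other protein-coding genes on the opposite strand, and those of Rbm3 and Atpif1 an antisense RNA. Atpif1, the inhibitor of mitochondrial ATP synthase, had 64.8 and 67.99 CPM in ON 1 and ON 2 and 32.5 and 35.9 in OFF 1 and OFF 2 (log2 fold change -0.96 ± 0.13, SE; adjusted p = 0.00942), lost without OFF 1 (adjusted p = 0.0579). For each of these 4 genes both ON libraries exceeded all OFF and WT libraries.

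Transcriptional regulators stood among the less secure rises, also named after their values were seen. Myb, a progenitor transcription factor gene, was at 111 and 97.03 CPM in ON 1 and ON 2 and 168 and 176 in OFF 1 and OFF 2 (log2 fold change 0.73 ± 0.12, SE; adjusted p = 0.0263), lost without OFF 1, OFF 2, ON 2, WT 1 or WT 2 (adjusted p up to 0.0898). Bcl6, the repressor that defines follicular helper cells, was at 25.04 and 16.9 CPM in ON 1 and ON 2 and 43.5 and 49.5 in OFF 1 and OFF 2 (log2 fold change 1.15 ± 0.18, SE; adjusted p = 0.0263), lost without OFF 2 or WT 2 (adjusted p up to 0.0624). Sox4, a factor of thymocytes and recent emigrants, was at 45.8 and 51.2 CPM in ON 1 and ON 2 and 88.7 and 121 in OFF 1 and OFF 2 (log2 fold change 1.11 ± 0.19, SE; adjusted p = 0.0365), lost without OFF 2, ON 1 or ON 2 (adjusted p up to 0.0811). Of these 3 OFF 2 had the highest value each time. Exons of Myb, Sox4, Bcl6 and Zbtb20, like those of Maf and Il21, overlap a gene on the opposite strand. Tcf4, an E protein gene, was at 8.84 and 9.07 CPM in ON 1 and ON 2 and 19.9 and 18.7 in OFF 1 and OFF 2 (log2 fold change 1.11 ± 0.17, SE; adjusted p = 0.0226), lost without OFF 1, WT 1 or WT 2 (adjusted p up to 0.0806). Zbtb20, a zinc finger repressor gene, had 56.1 and 54.1 CPM in ON 1 and ON 2 and 119 and 90.6 in OFF 1 and OFF 2 (log2 fold change 0.93 ± 0.16, SE; adjusted p = 0.0369), lost without OFF 1, ON 2 or WT 2 (adjusted p up to 0.123). Hivep1, a relative of Hivep3, had 89.7 and 79.3 CPM in ON 1 and ON 2 and 133 and 129.7 in OFF 1 and OFF 2 (log2 fold change 0.64 ± 0.12, SE; adjusted p = 0.0419), lost without OFF 1, OFF 2, ON 2, WT 1 or WT 2 (adjusted p up to 0.139).

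Signalling and metabolic genes also rose. Il6st encodes gp130, the shared receptor chain of the interleukin-6 family, and was at 275 and 311 CPM in ON 1 and ON 2 and 483 and 561 in OFF 1 and OFF 2 (log2 fold change 0.83 ± 0.13, SE; adjusted p = 0.0204), lost without OFF 2, WT 1 or WT 2 (adjusted p up to 0.0647). Sesn3, a gene of the sestrin family that restrains mTORC1, was at 175 and 157 CPM in ON 1 and ON 2 and 271 and 292 in OFF 1 and OFF 2 (log2 fold change 0.77 ± 0.12, SE; adjusted p = 0.0204), lost without OFF 2, WT 1 or WT 2 (adjusted p up to 0.0713). Lars2, the mitochondrial leucyl-tRNA synthetase gene, was at 271 and 236 CPM in ON 1 and ON 2 and 858 and 548 in OFF 1 and OFF 2 (log2 fold change 1.47 ± 0.20, SE; adjusted p = 0.0106), lost without ON 2 (adjusted p = 0.0579). OFF 1 was far above OFF 2 for Lars2, and WT had 707 and 794 CPM.

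**Figure D3:**
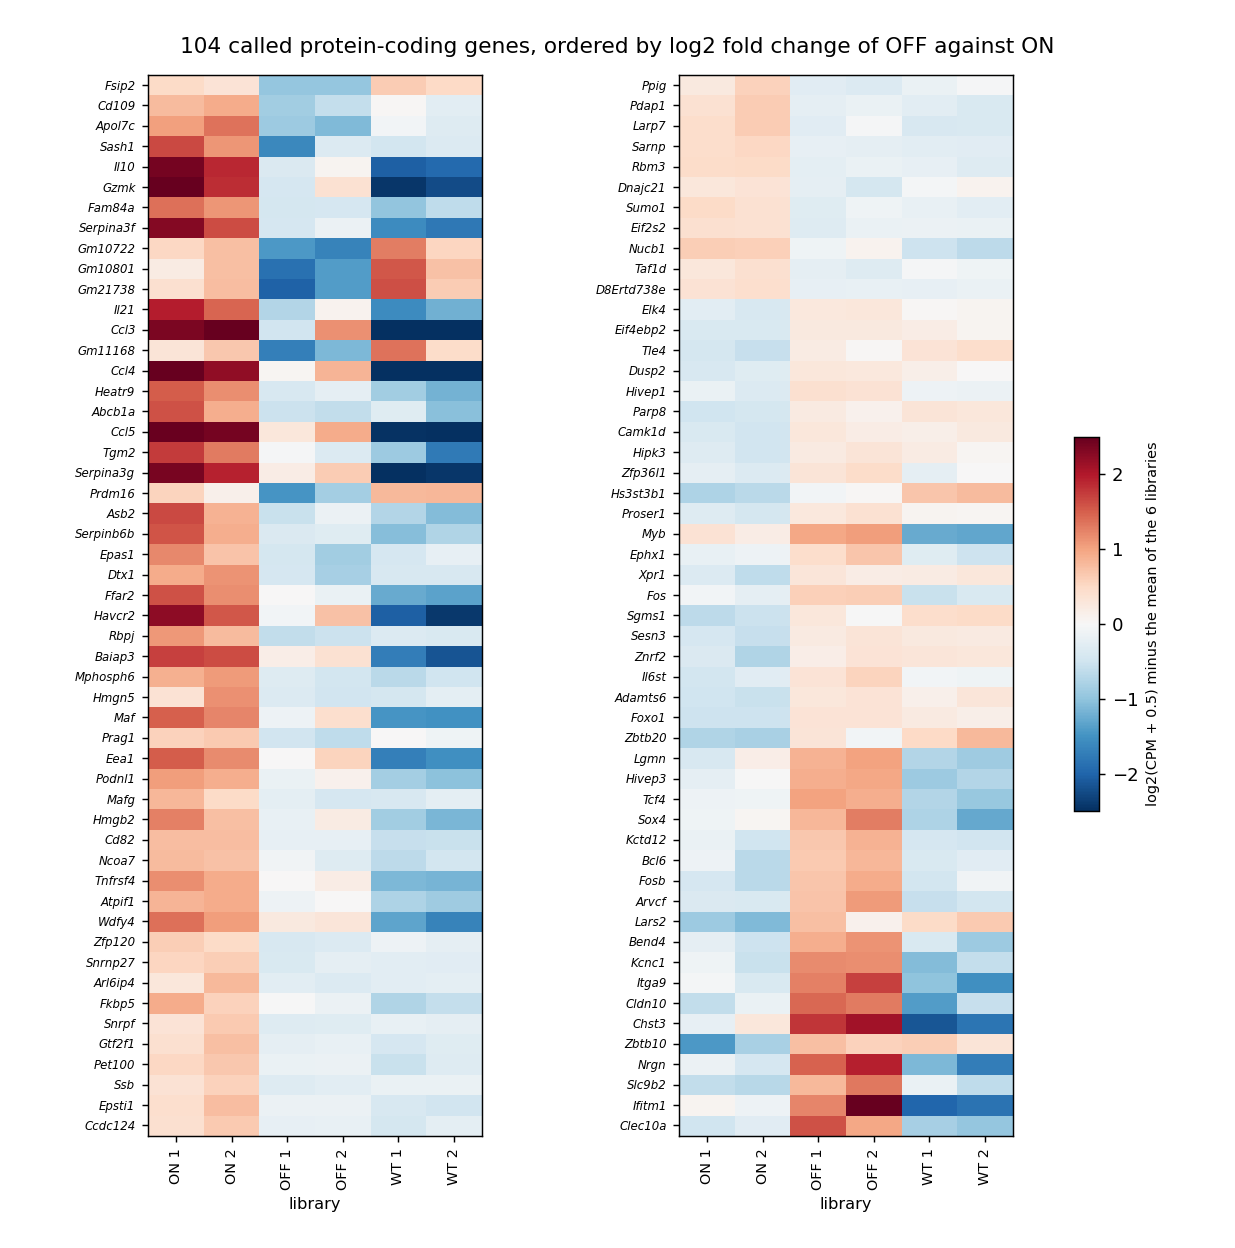
Rows are the 104 called protein-coding genes, ordered by log2 fold change of OFF against ON from the largest fall (top left) to the largest rise (bottom right). Columns are libraries and colour is log2(CPM + 0.5) minus the mean of the 6 libraries. Both libraries of ON and of OFF share their colour in most rows, while WT is near OFF in some rows and outside both groups in others.

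Gene lists put these calls beside related genes. Lists and members were chosen with earlier results of these data known. The shares of calls in this and the following paragraphs are therefore descriptions, and support nothing about a list. In the Notch lists Rbpj was the single gene called by edgeR among 35 tested genes of the pathway and Dtx1 among 6 tested targets, against 0.821% of all protein-coding genes. Rbpj is the gene the design switches, so its call is no result about the pathway, in which edgeR called no other gene. DESeq2 called 3 of the 35 and 1 of the 6. The lists had medians of 0.00 and -0.02 against -0.03 for all protein-coding genes. Notch1 was at 338 and 349.5 CPM in ON 1 and ON 2 and 369.8 and 320.4 in OFF 1 and OFF 2 and Notch2 at 95.1 and 106 CPM in ON 1 and ON 2 and 126 and 113 in OFF 1 and OFF 2. The target genes Nrarp (5.72 and 3.12 CPM in ON and 3.75 and 4.27 in OFF), Gata3 (67.98 and 68.5 against 69.03 and 80.2) and Myc (58.8 and 55.8 against 49.8 and 58.2) were not called. Hes1 was too low to test, at 0.409 and 0.149 CPM in ON and 0.173 and 0.180 in OFF.

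Effector products, a list chosen with earlier results known, held several calls. Of 20 tested genes of secreted and cytotoxic products 6 fell, Il10, Ccl4, Il21, Gzmk, Ccl3 and Ccl5, and 0 rose, against 0.497% and 0.324% of all protein-coding genes. The median log2 fold change was -1.21, and -1.97 to -0.54 with 1 library left out. DESeq2 called 6 of the 20 and limma-voom 5. Ccl5, a chemokine gene, was at 268 and 254 CPM in ON 1 and ON 2 and 57.9 and 90.7 in OFF 1 and OFF 2 (log2 fold change -1.81 ± 0.30, SE; adjusted p = 0.0494), lost without OFF 1, OFF 2, ON 1 or ON 2 (adjusted p up to 0.188). Gzmk, a granzyme gene, was at 40.9 and 19.7 CPM in ON 1 and ON 2 and 3.70 and 6.79 in OFF 1 and OFF 2 (log2 fold change -2.53 ± 0.40, SE; adjusted p = 0.0369), lost without OFF 1, OFF 2, WT 1 or WT 2 (adjusted p up to 0.199). Ccl3, a chemokine gene beside Ccl4, was at 20.2 and 23.1 CPM in ON 1 and ON 2 and 2.43 and 8.41 in OFF 1 and OFF 2 (log2 fold change -2.01 ± 0.37, SE; adjusted p = 0.0410), lost without ON 2, WT 1 or WT 2 (adjusted p up to 0.173). Gzmb, a granzyme gene that was not called, was at 226 and 77.7 CPM in ON 1 and ON 2 and 29.9 and 94.6 in OFF 1 and OFF 2, so its groups overlapped. Penk, the gene of the enkephalin precursor, was at 44.4 and 16.4 CPM in ON 1 and ON 2 and 4.68 and 8.29 in OFF 1 and OFF 2 (adjusted p = 0.102). Among 14 inhibitory receptor genes edgeR called 1, Havcr2, against 0.821% of all, while DESeq2 called 2 and limma-voom 0 (Havcr2 adjusted p = 0.0604). Tigit, which edgeR did not call, stood at 44.7 and 31.1 CPM in ON 1 and ON 2 and 13.9 and 21.9 in OFF 1 and OFF 2 (adjusted p = 0.0955). Gzmb, Penk and Tigit were named after their values were seen. Of the 14 inhibitory receptor genes 7 were above 0 (median -0.08). Both OFF libraries were above both ON libraries for 5 of the 14 and below for 4, against 21.8% and 25.8% of all. In bulk samples fewer cells of a type and less RNA per cell cannot be told apart.

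Immediate early genes had 4 of 29 called, Fosb, Fos, Zfp36l1 and Dusp2, each higher in OFF, with a median of 0.32, against 0.324% called higher among all protein-coding genes. Both OFF libraries exceeded both ON libraries for 19 of the 29, against 21.8% of all, and the reverse held for 2, against 25.8%. Fos was at 48.96 and 43.96 CPM in ON 1 and ON 2 and 77.7 and 79.3 in OFF 1 and OFF 2 (log2 fold change 0.76 ± 0.12, SE; adjusted p = 0.0287), lost without OFF 1, OFF 2, ON 2, WT 1 or WT 2 (adjusted p up to 0.0834). Zfp36l1, which encodes a protein that speeds mRNA decay, was at 147 and 135 CPM in ON 1 and ON 2 and 214 and 237 in OFF 1 and OFF 2 (log2 fold change 0.68 ± 0.13, SE; adjusted p = 0.0442), lost without OFF 1, OFF 2, ON 2, WT 1 or WT 2 (adjusted p up to 0.131). Dusp2, a phosphatase gene, was at 46.2 and 49.4 CPM in ON 1 and ON 2 and 74.4 and 73.9 in OFF 1 and OFF 2 (log2 fold change 0.63 ± 0.12, SE; adjusted p = 0.0443), lost without OFF 1, OFF 2, ON 2, WT 1 or WT 2 (adjusted p up to 0.152).

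For naive quiescence and homing, Foxo1 was the single edgeR call among 19 genes, against 0.821% of all protein-coding genes, and DESeq2 called 5. Of the 19, 16 were above 0 (median 0.26), against 46.8% of all, and 12 had both OFF libraries above both ON libraries, against 21.8%. Klf2, a Foxo1 target that maintains exit receptors, was at 176 and 183 CPM in ON 1 and ON 2 and 253 and 269 in OFF 1 and OFF 2 (adjusted p = 0.0697). S1pr1, the exit receptor gene, was at 310.5 and 289.5 CPM in ON 1 and ON 2 and 373 and 413 in OFF 1 and OFF 2 (adjusted p = 0.135). Bach2 was at 119.8 and 131 CPM in ON 1 and ON 2 and 223 and 176 in OFF 1 and OFF 2 (adjusted p = 0.0595) and Satb1 at 687 and 759 CPM in ON 1 and ON 2 and 1097 and 886 in OFF 1 and OFF 2 (adjusted p = 0.129). For these 4 genes OFF lay above ON without overlap, and none passed edgeR's test. DESeq2 called Klf2 (adjusted p = 0.00698), Bach2 (adjusted p = 0.00195) and Satb1 (adjusted p = 0.0424). Offsets that follow exonic length also called Klf2, Bach2 and Satb1 in edgeR (adjusted p = 0.0481, 0.0297 and 0.0458). Il7r (115 and 159 CPM in ON and 169 and 142 in OFF) and Ccr7 (143 and 194 against 189 and 176) overlapped between groups. Tcf7 (1431 and 1535 against 1883 and 1703) did not overlap and was not called.

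Some families with no call leaned to 1 side, where 46.8% of all protein-coding genes were above 0. Only 6 are described here, and others leaned too, such as respiratory chain genes (17 of 77 above 0) and glycolysis genes (4 of 20). TGF-beta pathway genes had 17 of 20 above 0 (median 0.30) and Krüppel-like factors 11 of 12 (median 0.29). Sterol synthesis and uptake genes had 20 of 23 above 0 (median 0.21, or 0.03 without OFF 2). Proteasome genes had 6 of 43 above 0 (median -0.15, or -0.02 without OFF 1 and -0.32 without OFF 2), interferon-stimulated genes 5 of 31 (median -0.19, or -0.09 without ON 1 and -0.30 without OFF 1) and ribosome assembly genes 4 of 30 (median -0.22). No member of these 6 lists passed the test in edgeR, against 0.821% of protein-coding genes in all. At an unadjusted p under 0.05 the higher and lower members numbered 8 and 0 (TGF-beta), 3 and 1 (Krüppel-like), 1 and 0 (sterol), 0 and 11 (proteasome), 1 and 5 (interferon) and 0 and 12 (ribosome assembly). DESeq2 called 0, 2, 0, 4, 1 and 4 of them in the same order, and limma-voom 0. Zinc finger genes, the largest family with 392 tested, had 3 higher (Zbtb10, Zbtb20 and Zfp36l1) and 1 lower (Zfp120), a share near that background.

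**Figure D4:**
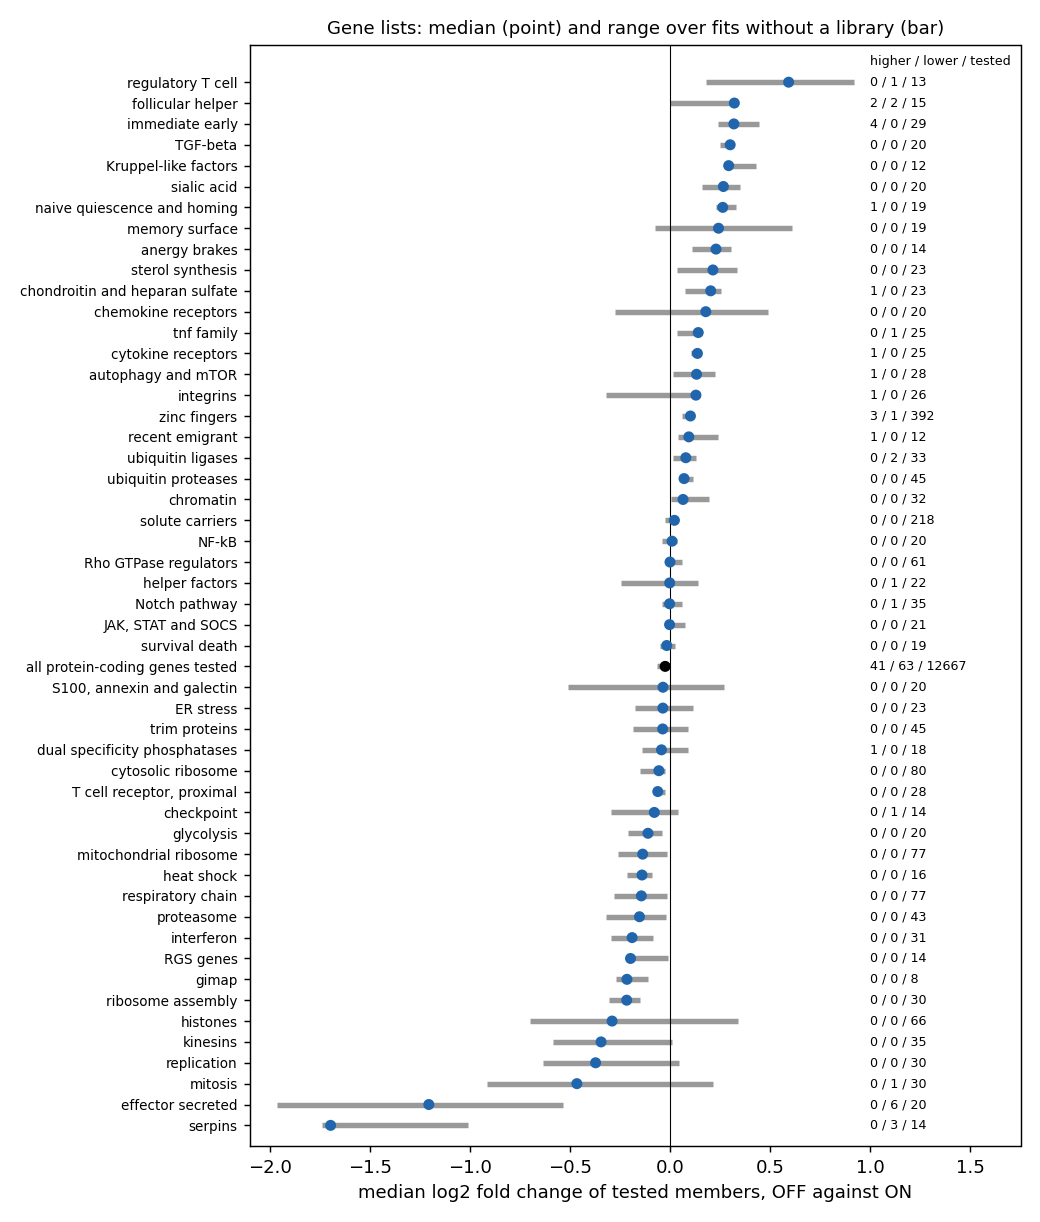
Points are the median log2 fold change of OFF against ON (x axis) of the tested members of each list (y axis) with at least 8 of them, and the black point is all protein-coding genes. Grey bars give the lowest and highest median when 1 library was left out, and the figures at the right are members called higher, called lower and tested. Serpins and effector products lie farthest to the left, and the bars of the cell division lists cross 0.

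Cell division genes varied more between replicates than between groups. The summed level of 30 mitosis genes was 2750.5 and 1432 CPM in ON 1 and ON 2 and 1177 and 1828 in OFF 1 and OFF 2, so ON 1 and OFF 2 were high and the groups overlapped. Mki67, the proliferation marker, was at 626 and 241 CPM in ON 1 and ON 2 and 277 and 475 in OFF 1 and OFF 2. Mki67 was named after its values were seen. All 30 genes were under 0 by fold change (median -0.47), but the median was 0.21 without ON 1. Hmgb2 alone was called by edgeR, and limma-voom called 0. Histone genes followed the same libraries, at 6061 and 3404 CPM in ON and 3066 and 4383 in OFF, and 0 of 66 were called by edgeR, DESeq2 or limma-voom (1 and 6 higher and lower at an unadjusted p under 0.05). Replication genes summed to 1624 and 1137 CPM in ON and 975 and 1243 in OFF. Of 30 edgeR and limma-voom called 0 and DESeq2 1 (0 and 8 at an unadjusted p under 0.05).

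Markers of other cells were low but not absent. The summed level of 15 B cell genes was 557 and 469 CPM in ON and 523 and 643 in OFF, overlapping. Cd74 was at 202 and 176 in ON against 172 and 208 in OFF, and Ighm at 139.99 and 125 in ON against 179 and 206 in OFF. The 13 tested had a median log2 fold change of 0.93, 11 above 0, with 0 called by edgeR, DESeq2 or limma-voom and 8 and 1 higher and lower at an unadjusted p under 0.05. CD8 T cell markers summed to 404 and 348 CPM in ON and 124 and 174 in OFF. Of the 7, edgeR called 2 lower (Gzmk and Ccl5), against 0.497% of all protein-coding genes. Ccl5 was the most abundant, at 268 and 254 CPM in ON and 57.9 and 90.7 in OFF. Both OFF libraries were below both ON libraries for 3 of the 7. They were above for 1, Klrd1 (2.45 and 1.78 CPM in ON, 2.77 and 4.57 in OFF), while Cd8b1, Eomes and Crtam overlapped between groups. The summed level moved with the effector products, with which the list shares genes, and the part of CD8 T cells in their fall was not tested. Natural killer markers summed to 33.1 and 10.5 in ON against 7.39 and 13.9 CPM in OFF, with Gzma at 26.3 and 5.50 in ON against 1.96 and 5.83 in OFF, and the defining gene Ncr1 was 0.256 and 0.347 in ON against 0.173 and 1.08 in OFF. Myeloid markers summed to 67.7 and 59.9 in ON against 54.3 and 72.8 in OFF, dendritic markers to 50.8 and 62.7 in ON against 65.2 and 56.5 in OFF, and plasma cell markers to 40.5 and 28.1 in ON against 37.2 and 41.04 in OFF, all overlapping. Erythroid markers summed to 43.7 and 40.8 in ON against 33.2 and 37.3 in OFF, mostly Tfrc and lower in OFF, stromal ones to 162 and 205 in ON against 234 and 204 in OFF, mostly Pecam1, and platelet ones to 4.09 and 4.51 in ON against 4.33 and 2.40 in OFF with 3 of 6 at 0. Foxp3, which defines regulatory T cells, was at 38.03 and 30.8 CPM in ON 1 and ON 2 and 36.6 and 78.7 in OFF 1 and OFF 2. OFF 2 stood apart from the other 3 libraries for Foxp3. The regulatory T cell list had a median of 0.59, or 0.18 without OFF 2, and its single call, Tnfrsf4, was lower in OFF. The part of B cells or regulatory T cells in other results was not tested.

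Among the least expressed genes OFF was low. A gene passes the low-count filter through the libraries where it is high, here ON or WT, so the low OFF level of this class is a description and supports nothing. Of 970 tested protein-coding genes with a mean up to 0.5 CPM, 13.8% were above 0 (median -1.32), with a median CPM of 0.511 and 0.446 in ON, 0.173 and 0.18 in OFF and 0.837 and 0.64 in WT. None of them was called by edgeR or DESeq2, while limma-voom called 4 and 262 had an unadjusted p under 0.05 in edgeR. Of 1666 genes between 0.5 and 2 CPM 35.7% were above 0. Above 2 CPM the shares were 54.0%, 51.6% and 50.5% in 3 rising classes of level. The serpin list had 3 of 14 called lower, against 0.497% of all, and a median of -1.70, or -1.01 without ON 1. It holds Serpina1b, Serpina3b, Serpina6, Serpinb1b, Serpinb6c and Serpine2 under 1 CPM. The predicted gene models Gm10722, Gm10801, Gm11168 and Gm21738, singled out after their values were seen, were also low in OFF. Gm21738 was at 124 and 159.6 CPM in ON 1 and ON 2 and 22.6 and 35.4 in OFF 1 and OFF 2 and at 288 and 147 in WT (log2 fold change -2.29 ± 0.36, SE; adjusted p = 0.0484), lost without OFF 1, OFF 2, ON 1 or ON 2 (adjusted p up to 0.297). Gm10722 had 13.8 and 16.3 CPM in ON 1 and ON 2 and 3.18 and 2.64 in OFF 1 and OFF 2 and 23.7 and 13.8 in WT. The part of library complexity in these falls was not tested.

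By median, genes that rose were longer than genes that fell, a description with no test. The median exonic length was 6700.0 bases for the 41 that rose, 2790.0 for the 63 that fell and 4680.0 for all tested. In the shortest of 5 length classes (165 to 2625 bases) 7 were called higher and 30 lower, with a median log2 fold change of -0.09. In the longest (7985 bases and over) 15 were higher and 13 lower, with a median of 0.05. The OFF replicates also differed with length, and the ON replicates less so. OFF 2 against OFF 1 had a median log2 ratio of 0.14 in the shortest class and -0.06 in the longest, and ON 2 against ON 1 had -0.0041 and -0.03. OFF 1 had -0.15 and 0.07 against ON 1 and -0.14 and 0.09 against ON 2. OFF 2 had -0.04 and 0.01 against ON 1, and -0.01 and 0.01 against ON 2. With offsets that follow exonic length, which move the median of all genes by 0.0869, Foxo1 rose by 1.01 and Rbpj fell by 1.32 on the log2 scale, and all 18 genes described one by one kept their call.

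**Figure D5:**
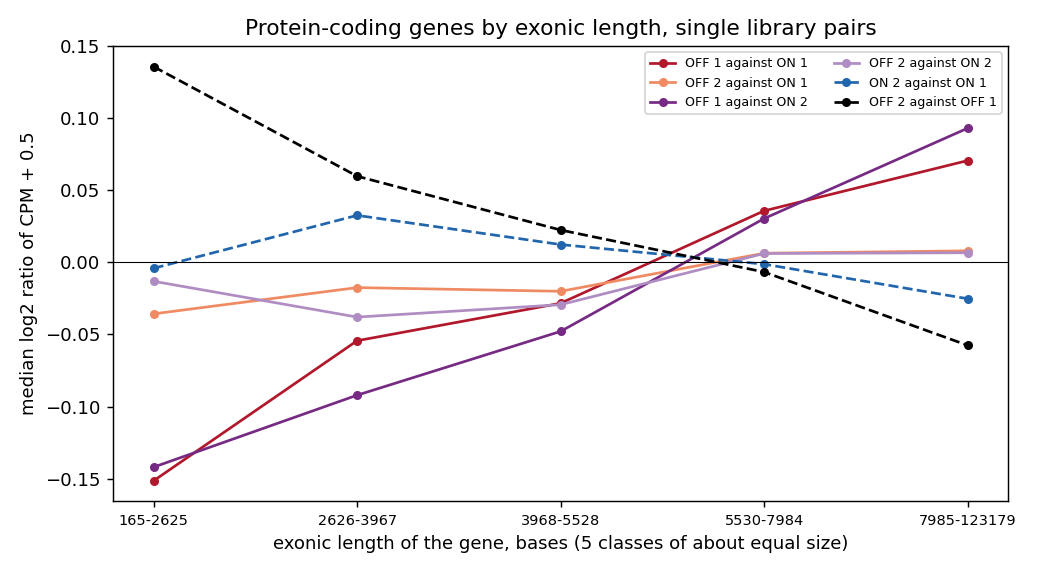
Median log2 ratio of CPM + 0.5 between single libraries (y axis) over 5 classes of exonic length of about 2533 protein-coding genes each (x axis). Solid lines are OFF libraries against ON libraries, dashed lines the 2 replicates of a group. The steepest lines are those with OFF 1, and OFF 2 against OFF 1 runs the other way.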

How the data were processed

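Bulk RNA-seq covered 6 samples, 2 each of WT, ON and OFF. Reads came from an Illumina NovaSeq and were aligned to GRCm38, per the labels' protocols. R 3.6.2 and edgeR are listed, per the submitters' processing notes. Aligner, counter, strand setting and the release of the annotation were not given in the sources used here. Deposited values are unnormalized read counts by gene. Rows of unassigned reads (5, holding 53.1% to 66.3% of reads) stayed out of library sizes and tests. GENCODE mouse release M21 on GRCm38 supplied symbols, types, exonic lengths and coordinates for 47310 of 47729 identifiers.

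Here genes passed filterByExpr (minimum count 10, minimum total 15), were scaled by TMM and fitted in edgeR 4.0.16 (R 4.3.3) by robust quasi-likelihood, using all 6 libraries and 3 residual degrees of freedom. Adjustment ran over all 15780 genes, and called means an adjusted p under 0.05. Alternatives used DESeq2 1.42.0 or limma 3.58.1 (with statmod 1.5.0), other scalings and filters, a replicate block and single libraries left out. The steps were tested on simulated counts. Named genes were first the largest rises and falls (up to 15 each, of which 6 and 12 existed) whose call held without each library. These also had to have a mean of at least 5 CPM and groups that did not overlap. The others were up to 4 called members of each of 62 lists, other called genes by symbol, and fixed Notch, maturation and marker genes. Gzmb, Penk, Tigit and Mki67 were added after their values were seen. Members and lists were chosen with earlier results of these data known. Values of some marker genes are not reported here.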

Additional observations from a re-analysis of the deposited data

How the results depend on the processing

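The counts of called protein-coding genes, 41 higher and 63 lower in OFF, moved with the test and the libraries. They were 169 and 196 with DESeq2, 4 and 13 at an adjusted p under 0.01, 19 and 39 when other gene types were removed before the fit, and 9 and 23 when WT was removed. With no filter on low counts 37 were lower. With the replicate number as a block, 8 were higher and 19 lower. The labels do not say that the number pairs samples, and deviations of ON 1 and OFF 1 from their group means had a correlation of -0.198. A crossed replicate block, added after seeing the data because of that sign, gave 405 and 593. Offsets that follow exonic length, also added after seeing the data, gave 214 higher. With 1 library left out the counts ran from 10 (without WT 2) to 166 (without ON 1) higher and from 15 (without OFF 1) to 344 (without ON 1) lower, and the lone library of a group is then assumed to vary like the others. The cause of these moves was not tested. RLE and upper quartile scaling, limma-voom and a mean of at least 1 CPM kept both counts within 1.5 times. Over 135 genes, all called ones included, and 2292 comparisons with an alternative, 1664 kept their side of the threshold, 610 lost a call, 18 gained one and 0 reversed. Counting error is widest for genes with few reads, and 2 samples a group limit what can be called.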
